A study of Mus musculus with 2 samples.

Results

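The drug and organic anion transporters described here are 7 genes chosen by symbol among the 25906 genes of the feature list. They are the ATP-driven pumps Abcb1a, Abcg2, Abcc1 and Abcc4, the organic anion transporting polypeptides Slco1a4 and Slco1c1, and the organic anion exchanger Slc22a8. All 7 were found in the files. The data are single-cell transcriptomes of sorted astrocytes and endothelium of adult mouse whole brain, with 1 library from IL34LacZ/LacZ mice, which the submitters call knockout, and 1 library from IL34LacZ/+ mice, which they call wild type. Both libraries therefore carry at least 1 LacZ allele of Il34, the gene of interleukin-34, a ligand of the receptor of microglia and brain macrophages. The sort markers, the number and exact age of the mice and the position of the LacZ insertion are not stated in the sources used here. With 1 library per genotype nothing below has a replicate check, and no test across samples was possible.

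Brain endothelial cells seal the vessel wall with tight junctions, so most drugs and organic anions can cross only through the cell. Pumps of the ABC family use ATP to return lipophilic drugs and conjugates to the blood, while carriers of the SLCO and SLC22 families move organic anions such as bile acids, steroid conjugates and thyroid hormone across the membrane without ATP. The SLCO carriers can work in both directions, so the group is not made up of efflux pumps alone. Abcb1a encodes the main P-glycoprotein of mouse brain capillaries and Abcg2 the breast cancer resistance protein, whose substrates overlap with those of P-glycoprotein. Abcc1 and Abcc4 encode multidrug resistance proteins that export organic anions, Slco1a4 encodes a carrier of bile acids, steroid conjugates and cardiac glycosides, Slco1c1 a carrier of thyroxine, and Slc22a8 a carrier that takes up organic anions in exchange for dicarboxylates.

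Positions are those of GENCODE M21 on GRCm38. Slco1c1 (ENSMUSG00000030235, chr6:141524368-141570177, plus strand) and Slco1a4 (ENSMUSG00000030237, chr6:141805440-141856199, minus strand) lie 235.3 kb apart. Abcg2 is on the same chromosome (ENSMUSG00000029802, chr6:58584523-58695676, plus strand). Abcb1a (ENSMUSG00000040584) covers chr5:8660077-8748575 on the plus strand, 49.6 kb from its near copy Abcb1b. Abcc1 (ENSMUSG00000023088) covers chr16:14361558-14475737 on the plus strand, Abcc4 (ENSMUSG00000032849) covers chr14:118482692-118706219 on the minus strand, and Slc22a8 (ENSMUSG00000063796) covers chr19:8591254-8611835 on the plus strand, 6.2 kb from its relative Slc22a6. Because reads of this assay come from the end of the transcript, the last 500 bases of every coding transcript of the 7 genes were cut into words of 50 bases. No such word occurred in a transcript of another gene, Abcb1b and the other Slco1a genes included.

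Promoter windows of 300 bases, from 250 before to 50 after the transcript start, were taken from RefSeq on GRCm38.p6 and were found for 6 of the 7 genes. They are shown for the 4 genes with a single start in the table, all of which were highest in endothelial-like cells (below). Capitals mark every match to 7 short motifs searched on both strands, and the order is that of the gene's strand. The windows are chr6:141856171-141856470 (minus strand) for Slco1a4, chr6:141524104-141524403 (plus strand) for Slco1c1, chr19:8592932-8593231 (plus strand) for Slc22a8 and chr5:8566841-8567140 (plus strand) for Abcb1a. The window of Abcb1a lies far upstream of its GENCODE span, which begins at chr5:8660077, while that of Slc22a8 lies inside its span. No GENCODE transcript start of the gene was found in the window of Abcb1a or of Slc22a8.
Slco1a4: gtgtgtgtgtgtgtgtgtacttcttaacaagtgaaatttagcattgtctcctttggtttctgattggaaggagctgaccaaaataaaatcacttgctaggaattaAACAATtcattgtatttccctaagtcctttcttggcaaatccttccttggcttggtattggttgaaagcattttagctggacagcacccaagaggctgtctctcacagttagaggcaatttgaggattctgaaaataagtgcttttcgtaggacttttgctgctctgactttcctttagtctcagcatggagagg
Slco1c1: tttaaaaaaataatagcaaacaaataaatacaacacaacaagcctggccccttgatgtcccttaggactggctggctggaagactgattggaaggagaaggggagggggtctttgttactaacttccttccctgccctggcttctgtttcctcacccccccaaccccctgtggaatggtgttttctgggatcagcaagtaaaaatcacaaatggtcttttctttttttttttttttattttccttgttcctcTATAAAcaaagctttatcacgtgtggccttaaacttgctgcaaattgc
Slc22a8: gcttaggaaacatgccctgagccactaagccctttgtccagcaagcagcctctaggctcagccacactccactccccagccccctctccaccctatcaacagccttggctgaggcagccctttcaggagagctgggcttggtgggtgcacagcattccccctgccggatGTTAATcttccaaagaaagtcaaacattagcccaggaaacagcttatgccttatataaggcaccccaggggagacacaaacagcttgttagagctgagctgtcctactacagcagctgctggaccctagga
Abcb1a: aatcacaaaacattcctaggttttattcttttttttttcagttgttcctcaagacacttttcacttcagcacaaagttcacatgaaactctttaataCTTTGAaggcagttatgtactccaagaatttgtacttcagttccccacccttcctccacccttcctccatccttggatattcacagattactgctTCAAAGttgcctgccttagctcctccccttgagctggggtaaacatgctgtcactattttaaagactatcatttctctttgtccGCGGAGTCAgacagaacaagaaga
The motifs, with the share of all 32851 RefSeq promoter windows that hold each, were the TCF/LEF core CTTTGA (16%), the SOX core AACAAT (10.7%), the ETS core CCGGAAG (8.86%), the Nfe2l2 element TGACNNNGC (12.4%), the Ahr element GCGTG (32.4%), the HNF1 half-site GTTAAT (7.1%) and the TATA box TATAAA (13.6%). No 2 marked matches overlap. Abcb1a held 2 TCF/LEF matches, at bases 98 and 193 of the window, and 1 Nfe2l2 match. Slco1a4 held 1 SOX match and Slc22a8 held 1 HNF1 half-site. Slco1c1 held 1 match to the TATA box letters, at base 253 of the window, which is past the transcript start. A match is a string of letters and not a measured site. The 4 windows were poor in CpG, with 1 CpG in Slco1a4, Slco1c1 and Slc22a8 and 2 in Abcb1a, against a median of 7 over all windows, of which 23.3% held at most 2. Abcg2 (3, 10 and 28 CpG at its 3 starts) and Abcc4 (6 and 41 at its 2 starts) were not uniformly so.

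Totals were 36696941 UMIs over 5400 barcodes for the library labelled IL34LacZ/LacZ and 26679053 UMIs over 3901 barcodes for the library labelled IL34LacZ/+, of which 1167 and 1659 cells were kept. A UMI is a tag that marks 1 captured RNA molecule. Cells were assigned to classes by marker scores that contain none of the 7 genes, which gave 288 and 505 endothelial-like, 110 and 226 astrocyte-like, 237 and 315 choroid plexus epithelium-like, 223 and 248 oligodendrocyte-like, 47 and 34 pericyte-like, and 32 and 29 fibroblast-like cells. A further class of 68 and 76 cells, marked by Bnc2 and Rspo3, with Slc47a1 among its 10 leading genes, is called border cells below. The libraries shared 8 barcodes, 2 of them among the cells kept. In pericyte-like cells Il34 tags were more abundant under the label IL34LacZ/LacZ, at 516 CPM (431 to 613) against 375 CPM (288 to 478) in the library labelled IL34LacZ/+, and likewise in fibroblast-like cells, at 284 against 193 CPM. In border cells they stood the other way round, at 3.82 CPM (1.04 to 9.78) against 12.2 CPM (6.81 to 20.1). A tag outside the part that the insertion removes checks nothing, so each library is named by its label throughout and every direction rests on that label. CPM relate the UMIs of a gene to all UMIs of the class and library, scaled to 1000000. Values in brackets are 95% limits for counting error alone. How well the end of each transcript is captured is not known, so levels are compared between cells and not between genes.

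Of the 7 genes, 6 had their highest level in endothelial-like cells in both libraries, and Abcc1 was the exception. Over all 12225 genes with at least 100 UMIs, 9.33% had their highest level there in both libraries. Slco1a4 was also among the 10 genes with the highest fold in endothelial-like cells over all other cells. The marker score used Cldn5, Flt1, Pecam1 and 12 other endothelial genes, and the summed level of those 15 markers was 19809 CPM in the library labelled IL34LacZ/LacZ and 22524 CPM in the library labelled IL34LacZ/+.

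**Figure D1:**
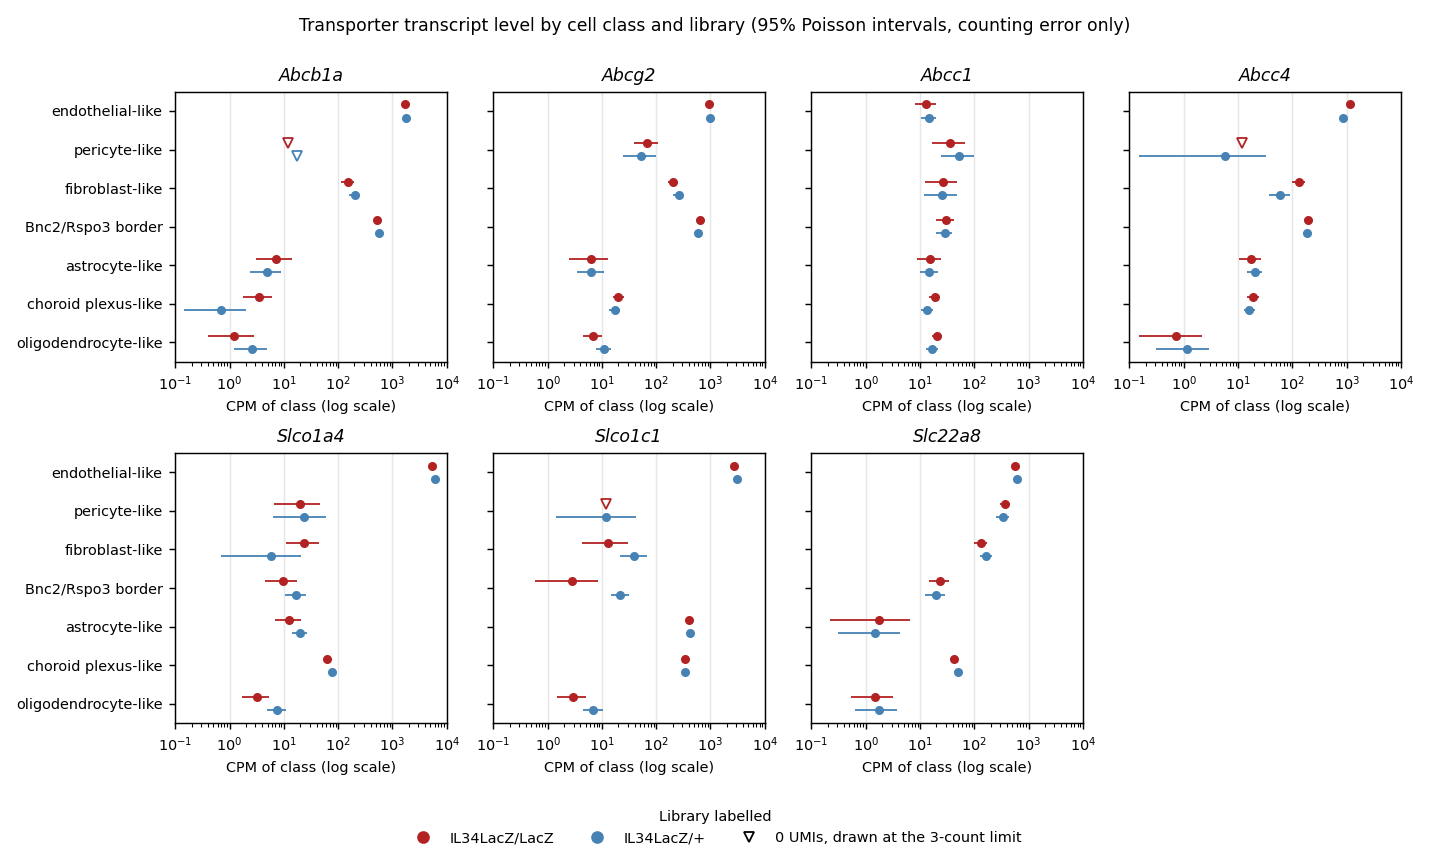
Level of each transporter gene in CPM (horizontal, log scale) in 7 cell classes (vertical), with the library labelled IL34LacZ/LacZ drawn above the library labelled IL34LacZ/+. Bars are 95% Poisson intervals and triangles stand at the limit that 0 UMIs allow. All genes but Abcc1 have their highest points in endothelial-like cells, and the second highest points fall in border cells for Abcb1a, Abcg2 and Abcc4, in pericyte-like cells for Slc22a8 and in astrocyte-like cells for Slco1c1.

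Among the ABC pumps, Abcb1a, Abcg2 and Abcc4 shared one pattern, with endothelial-like cells first and border cells second in both libraries. Abcb1a reached 1693 CPM (1631 to 1758, 2754 UMIs) in endothelial-like cells of the library labelled IL34LacZ/LacZ and 1812 CPM (1761 to 1865, 4742 UMIs) in those of the library labelled IL34LacZ/+. In border cells it reached 527 CPM (484 to 573) and 578 CPM (536 to 622), so endothelial-like cells were 3.21-fold and 3.14-fold higher. Pericyte-like cells held 0 Abcb1a UMIs in both libraries, where 3 UMIs, taken as the limit that a count of 0 allows, would be 12 and 17.6 CPM. Astrocyte-like, choroid plexus epithelium-like and oligodendrocyte-like cells held between 0.69 and 7.18 CPM.

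Abcg2 stood at 935 CPM (889 to 983) in endothelial-like and 643 CPM (595 to 693) in border cells of the library labelled IL34LacZ/LacZ. In the library labelled IL34LacZ/+ the levels were 975 CPM (937 to 1013) and 587 CPM (545 to 631). Endothelial-like cells were thus 1.46-fold and 1.66-fold above border cells, the narrowest lead among the 3 pumps. Fibroblast-like cells held 206 CPM (163 to 257) and 258 CPM (208 to 317) of Abcg2, and pericyte-like cells 68.0 CPM (39.6 to 109) and 52.7 CPM (24.1 to 100).

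Abcc4 reached 1132 CPM (1081 to 1185) and 841 CPM (806 to 877) in endothelial-like cells of the libraries labelled IL34LacZ/LacZ and IL34LacZ/+, and 191 CPM (165 to 219) and 183 CPM (159 to 208) in border cells. The lead of endothelial-like cells was 5.93-fold and 4.6-fold. Pericyte-like cells held 0 and 1 Abcc4 UMIs. Cldn5, a tight junction gene of the endothelium, stood at 6.68 and 22.7 CPM in border cells and at 1598 and 2323 CPM in endothelial-like cells. The summed endothelial markers stood at 545 and 658 CPM in border cells. The part of endothelial transcripts in the pump levels of border cells was not tested. Border cells were also the class with the highest Slc47a1, an organic cation exchanger, at 2046 and 1971 CPM. In fibroblast-like cells 1 cell supplied 35.1% and 33.3% of the Abcb1a UMIs, so that level rests on few cells.

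Abcc1 was low in every class and did not mark the endothelium. Endothelial-like cells held 12.9 CPM (8.0 to 19.7, 21 UMIs) and 14.5 CPM (10.3 to 19.9, 38 UMIs), and pericyte-like cells the highest value, 36.0 CPM (16.5 to 68.3) and 52.7 CPM (24.1 to 100) from 9 UMIs in each library. Neuron-like cells came second, at 32.0 CPM (8.71 to 81.9) and 47.9 CPM (15.6 to 112) from 4 and 5 UMIs. The intervals of pericyte-like, neuron-like, border and fibroblast-like cells overlap one another, so the order among them is not resolved at this depth. In the library labelled IL34LacZ/LacZ those of other classes reached into this range too, such as oligodendrocyte-like cells (16.4 to 25.4 CPM). With 21 and 38 UMIs Abcc1 fell under the limit of 100 UMIs for a ratio in endothelial-like cells.

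The pair of SLCO carriers differed outside the endothelium. Slco1a4 stood at 5329 CPM (5217 to 5442, 8666 UMIs) and 6038 CPM (5945 to 6133, 15801 UMIs) in endothelial-like cells of the libraries labelled IL34LacZ/LacZ and IL34LacZ/+. Outside the endothelium, among classes of at least 20 cells other than the erythrocyte-like barcodes, it was highest in choroid plexus epithelium-like cells, with 63.1 CPM (55.1 to 72.0) and 75.7 CPM (67.8 to 84.4). Slco1c1 stood at 2727 CPM (2647 to 2809) and 3143 CPM (3075 to 3212) in endothelial-like cells, while astrocyte-like cells held 405 CPM (369 to 445) and 412 CPM (385 to 441). Choroid plexus epithelium-like cells held 338 CPM (319 to 358) and 341 CPM (323 to 358) of Slco1c1. The endothelial lead of Slco1c1 over astrocyte-like cells was 6.73-fold and 7.62-fold.

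The counts of the SLCO carriers stood in a different ratio in each of these classes. Endothelial-like cells held 8666 Slco1a4 UMIs beside 4435 Slco1c1 UMIs in the library labelled IL34LacZ/LacZ, and 15801 beside 8224 in the library labelled IL34LacZ/+. Astrocyte-like cells of the library labelled IL34LacZ/LacZ held 452 Slco1c1 UMIs beside 14 Slco1a4 UMIs, and those of the library labelled IL34LacZ/+ held 839 beside 40. In choroid plexus epithelium-like cells the counts were 1189 beside 222 and 1470 beside 327.

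Slc22a8 had its second highest level in pericyte-like cells, the mural cells that wrap capillaries. It stood at 556 CPM (520 to 593, 904 UMIs) and 604 CPM (575 to 635, 1581 UMIs) in endothelial-like cells and at 372 CPM (300.2 to 456, 93 UMIs) and 334 CPM (253 to 432, 57 UMIs) in pericyte-like cells of the libraries labelled IL34LacZ/LacZ and IL34LacZ/+. Endothelial-like cells were 1.49-fold and 1.81-fold higher. The pericyte-like cells held 5 and 4 Slco1a4 UMIs and 1 and 5 Cldn5 UMIs, while the summed endothelial markers stood there at 848 and 1001 CPM. The part of endothelial transcripts in the Slc22a8 level of pericyte-like cells was not tested. Fibroblast-like cells held 130 CPM (96.8 to 172) and 167 CPM (127 to 216) and choroid plexus epithelium-like cells 42.9 CPM (36.4 to 50.4) and 49.3 CPM (42.9 to 56.4).

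The remaining classes were small. In microglia-like cells (10 and 43) the 7 genes had 1 and 8 UMIs in all. Neuron-like cells (16 and 18) showed 120 and 278 CPM of Slco1a4, of which 73.3% and 69.0% came from 1 cell. Erythrocyte-like barcodes (44 and 15) also held vascular and choroid plexus transcripts. In them 15 and 12 of 15 endothelial markers were detected, summing to 1146 and 184 CPM, and Slco1a4 stood at 274 and 40.9 CPM.

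Cells differ in depth between classes, so detection was compared after every cell had been thinned to 1000 UMIs. Slco1a4 was then found in 93.8% (270 of 288 cells) and 96% (485 of 505 cells) of endothelial-like cells of the libraries labelled IL34LacZ/LacZ and IL34LacZ/+. Slco1c1 was found in 86.1% and 89.3%, Abcb1a in 75.3% and 77.4%, Abcc4 in 60.1% and 52.5%, Abcg2 in 53.5% and 58.8%, Slc22a8 in 38.5% and 44.6% and Abcc1 in 1.4% and 1.6% of them. Oligodendrocyte-like cells, which should lack the endothelial carriers and pumps, showed at most 0.897% for any of the 6 genes other than Abcc1. Abcc1 itself was found in 1.3% and 1.2% of them, at 20.5 and 17 CPM, so they are no background for it, and its shares in the endothelial-like cells are not told apart from theirs at this depth. Without thinning the shares of the other 6 genes in oligodendrocyte-like cells were 1.3% to 12.5%, at a median depth of 16471 and 13745 UMIs per cell against 4902 and 4366 in endothelial-like cells. At equal depth Abcg2 was found in 45.6% and 48.7% and Abcb1a in 36.8% and 35.5% of border cells, Slco1c1 in 34.5% and 30.1% of astrocyte-like cells, and Slc22a8 in 27.7% and 20.6% of pericyte-like cells.

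**Figure D2:**
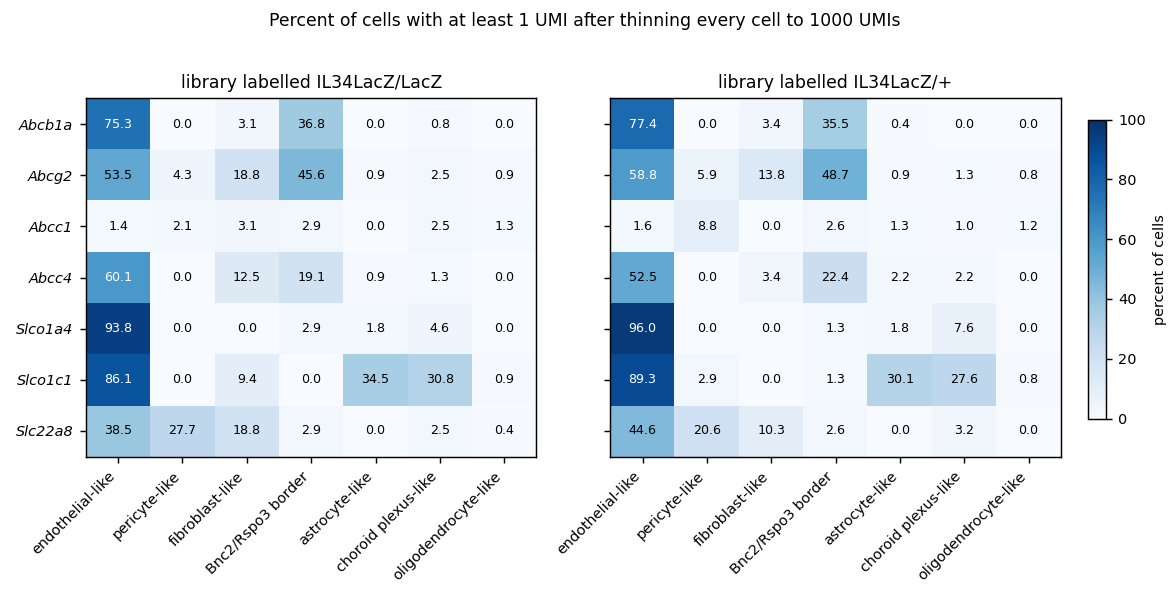
Percent of cells with at least 1 UMI of each gene (rows) in 7 classes (columns) after every cell was thinned to 1000 UMIs, with the library labelled IL34LacZ/LacZ at left and the library labelled IL34LacZ/+ at right. The darkest field of each row falls in the endothelial-like column for every gene but Abcc1. Lighter ones outside it mark border cells, astrocyte-like, choroid plexus epithelium-like, pericyte-like and fibroblast-like cells.

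Single endothelial-like cells held several of these transcripts at once. Before thinning, 6 of the 7 genes were detected in 65.3% (188 of 288) and 66.3% (335 of 505) of endothelial-like cells, and all 7 in 3.8% and 3.6%. The median was 6 genes per cell in both libraries, and 4 after thinning. Correlations of log2(CPM + 100) between pairs of members across capillary-like cells lay between -0.14 and 0.42 in 234 cells of the library labelled IL34LacZ/LacZ and between -0.16 and 0.18 in 425 cells of the library labelled IL34LacZ/+. Cells of 1 library share depth and free RNA, and in sparse counts such values are no finding.

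Along the vessel wall the members did not move as a block. Endothelial-like cells were split by marker scores into arterial-like (11 cells in the library labelled IL34LacZ/LacZ and 18 in the library labelled IL34LacZ/+), capillary-like (234 and 425), venous-like (18 and 12) and fenestrated-like cells (5 and 8), the last marked by Plvap, a diaphragm gene of leaky vessels outside the barrier. The noncapillary zones are small, and 20 and 42 cells had no zone. All 12 arterial and 8 capillary markers were detected in both libraries, and of 10 venous markers 10 and 9, with Lcn2 at 0 UMIs. The zones were chosen by these markers, so their detection is no check of the zones. In arterial-like cells 1 and 2 of 8 smooth muscle markers were detected, summing to 17.3 and 27.6 CPM, with Acta2 and Myh11 at 0 UMIs, and 2 and 1 of 12 pericyte markers, summing to 69.2 and 9.20 CPM.

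In arterial-like cells 5 of the 6 members with at least 100 UMIs were lower by over 1.5-fold than in capillary-like cells, over both libraries summed. Of all genes measured 23.5% were so, and of the 275 genes with at least 500 CPM in capillary-like cells 30.5%. Abcg2, Abcc4 and Slc22a8 held 71, 82 and 25 UMIs in the arterial-like cells and reached 100 UMIs through the capillary-like cells, so this count and those of the other zones are a description only. Slc22a8 stood apart most, at 150 CPM (97.1 to 222) in arterial-like and 656 CPM (629 to 684) in capillary-like cells, 4.37-fold lower. Its log2 ratio was -2.59 (-4.04 to -1.46) in the library labelled IL34LacZ/LacZ and -1.95 (-2.68 to -1.30) in the library labelled IL34LacZ/+. Abcg2 was 2.34-fold lower, at 426 CPM (333 to 538) against 998 CPM (965 to 1033), and Abcc4 was 2.04-fold lower, at 492 CPM (392 to 611) against 1003 CPM (969 to 1037).

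Abcb1a was 1.60-fold lower in arterial-like cells, with log2 ratios of -0.60 (-0.98 to -0.25) and -0.72 (-0.99 to -0.46) in the libraries labelled IL34LacZ/LacZ and IL34LacZ/+. Slco1a4 was 1.56-fold lower over both, but its log2 ratio was -1.04 (-1.28 to -0.82) in the library labelled IL34LacZ/LacZ and -0.49 (-0.62 to -0.36), short of 1.5-fold, in the library labelled IL34LacZ/+. Slco1c1 was near its capillary level, at 3182 CPM (2917 to 3465) in arterial-like and 3235 CPM (3175 to 3297) in capillary-like cells, with a log2 ratio of -0.02 (-0.15 to 0.10). The libraries took opposite sides for it, at -0.48 (-0.75 to -0.23) and 0.16 (0.01 to 0.30), and 1 cell supplied 32.8% and 23.1% of its arterial UMIs.

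In venous-like cells the order was another one. Slco1c1 was 3.73-fold lower than in capillary-like cells, at 867 CPM (757 to 988), and its log2 ratio was -1.87 in both libraries (-2.12 to -1.63 and -2.20 to -1.55). Slc22a8 was 2.0-fold lower, at 328 CPM (262 to 405), and Slco1a4 was 1.83-fold lower, at 3391 CPM (3171 to 3623). Over both libraries summed, the ABC pumps lay close to the capillary level. Their log2 ratios were 0.05 (-0.08 to 0.19) for Abcb1a, -0.10 (-0.30 to 0.08) for Abcg2 and 0.07 (-0.11 to 0.25) for Abcc4. These sums weigh the libraries unequally. Venous-like cells held 169168 UMIs in the library labelled IL34LacZ/LacZ and 90328 in the library labelled IL34LacZ/+, and capillary-like cells 1234567 and 2125943. By library the ratios of these pumps ranged from 0.07 to 0.15 under the label IL34LacZ/LacZ. Under the label IL34LacZ/+ Abcb1a had 0.07 (-0.15 to 0.29), while Abcg2 and Abcc4 stood below the capillary level, at -0.58 (-0.97 to -0.21) and -0.42 (-0.81 to -0.05). Thus 3 of 6 members were lower by over 1.5-fold, against 20.3% of all genes measured and 30.5% of those with at least 500 CPM. Arterial-like and venous-like cells thus held 3182 and 867 CPM of Slco1c1 but 1147 (990 to 1321) and 1904 CPM (1739 to 2079) of Abcb1a.

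The 13 fenestrated-like cells held few transcripts of the carriers. All 15 endothelial markers were detected in them, at 20575 and 22408 CPM, but the cells were chosen by the score of these markers, so this checks nothing. Abcb1a stood at 120 CPM (57.5 to 220.5, 10 UMIs), 15.3-fold below capillary-like cells, and Slco1a4 at 180 CPM (101 to 297, 15 UMIs), 34.6-fold below. The libraries differed widely for Slco1a4, with 1 UMI (27.3 CPM, log2 ratio -7.73, -13.03 to -5.25) under the label IL34LacZ/LacZ and 14 UMIs (299.6 CPM, 21.6-fold below) under the label IL34LacZ/+. Slco1c1 had 2 UMIs and Slc22a8 1 UMI over both libraries, giving log2 ratios of -7.08 (-10.12 to -5.22) and -5.77 (-11.08 to -3.29). Abcc4 was 3.98-fold lower, at 252 CPM (156 to 385), 6.29-fold from 7 UMIs in the library labelled IL34LacZ/LacZ and 2.96-fold from 14 UMIs in the library labelled IL34LacZ/+. Abcg2 was the exception, at 707 CPM (538 to 912) and a log2 ratio of -0.50 (-0.89 to -0.13), short of 1.5-fold, though past it (-0.76) when cells were thinned to 1000 UMIs. Over 1.5-fold lower were 5 of 6 members, beside 32.1% of all genes measured and 50.5% of those with at least 500 CPM in capillary-like cells. All 6 held under 100 UMIs in the fenestrated-like cells and were measured through the capillary-like cells alone, so nothing is read from the count. These values rest on 5 and 8 cells, and 1 cell supplied 53.3% of the Slco1a4 UMIs.

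**Figure D3:**
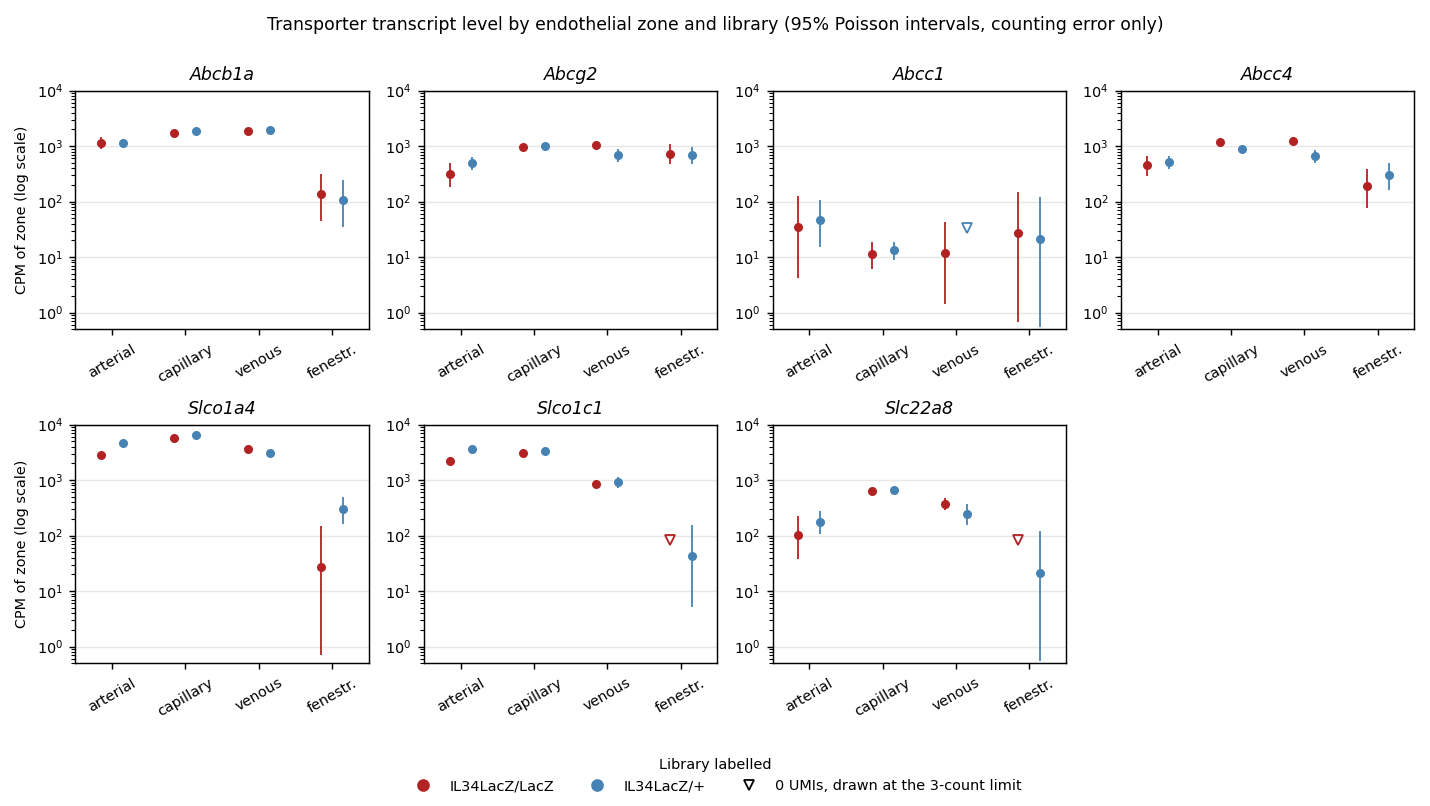
Level of each transporter gene in CPM (vertical, log scale) in 4 endothelial zones, with the library labelled IL34LacZ/LacZ left of the library labelled IL34LacZ/+. Bars are 95% Poisson intervals and triangles stand at the limit that 0 UMIs allow. Slco1c1 is lowest among the 3 barrier zones in venous-like cells and Slc22a8 in arterial-like cells, and in fenestrated-like cells all but Abcg2 and the scarce Abcc1 lie well below the capillary level.

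The comparison of genotypes asked whether the transporters differed between the library labelled IL34LacZ/LacZ and the library labelled IL34LacZ/+. In endothelial-like cells 0 of the 6 members with at least 100 UMIs passed 1.5-fold in either direction. Of 6063 genes 7.34% did, so a count of 0 in 6 is near the background. That share covers every gene from 100 UMIs upward. It was not matched to the counts of the 6 members, which held 2485 to 24467 UMIs. Within arterial-like cells 2 of 3 measured members passed and within venous-like cells 2 of 5, named below. The share of all genes past 1.5-fold was not computed within these zones, so nothing is read from the zone counts. Without replicates none of these counts says anything about animals. The median log2 ratio of the 6063 genes was -0.01.

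Abcc4 was the only measured member with a higher level in the library labelled IL34LacZ/LacZ, at 1132 CPM against 841 CPM in the library labelled IL34LacZ/+, a log2 ratio of 0.43 (0.34 to 0.52). Of the genes measured, 94.0% had a lower ratio. The level per cell had a median of 974 CPM (quartiles 476 and 1607) and 754 CPM (quartiles 413 and 1176), so the cells of both libraries overlapped broadly. Within capillary-like cells the log2 ratio was 0.43 (0.34 to 0.53), from 1200 and 888 CPM, and within venous-like cells 0.92 (0.50 to 1.36), from 1259 and 664 CPM in 18 and 12 cells. In arterial-like cells it was -0.20 (-0.93 to 0.50) from 82 UMIs. In fibroblast-like cells Abcc4 had 50 and 21 UMIs, a log2 ratio of 1.13 (0.37 to 1.94) under the limit of 100 UMIs, and in border cells 0.06 (-0.22 to 0.35).

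Over all endothelial-like cells the other 5 measured members had lower levels in the library labelled IL34LacZ/LacZ by less than 1.2-fold. Slco1c1 had a log2 ratio of -0.20 (-0.26 to -0.15), Slco1a4 -0.18 (-0.22 to -0.14), Slc22a8 -0.12 (-0.24 to -0.00), Abcb1a -0.10 (-0.17 to -0.03) and Abcg2 -0.06 (-0.15 to 0.03), and 24.0% to 42.3% of all genes measured had lower ratios. The summed endothelial markers were lower in the same library, at 19809 against 22524 CPM, as was Ttr, a choroid plexus transcript, at 1014 against 1430 CPM. Their part in these ratios was not tested. Capillary-like cells were 81.2% and 84.2% of the endothelial-like cells, arterial-like cells 3.8% and 3.6%, and venous-like cells 6.25% and 2.38%. Within capillary-like cells the log2 ratio of Slco1c1 was -0.10 (-0.16 to -0.04), against -0.20 over all endothelial-like cells. The part of the zone shares in the ratios was not tested.

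By zone the 5 genes did not keep to one size or direction. Within capillary-like cells their log2 ratios lay between -0.17 and -0.10. Within arterial-like cells Slco1a4 stood at 2801 CPM in the library labelled IL34LacZ/LacZ against 4626 CPM in the library labelled IL34LacZ/+, a log2 ratio of -0.72 (-0.99 to -0.47). Slco1c1 stood there at 2213 against 3697 CPM, a log2 ratio of -0.74 (-1.04 to -0.45), so both passed 1.5-fold in 11 and 18 cells, while Abcb1a had -0.01 (-0.46 to 0.43). In these arterial-like cells 1 cell supplied 32.7% and 20.1% of the Slco1a4 UMIs and 32.8% and 23.1% of the Slco1c1 UMIs. The limits count UMIs and leave out the spread between cells. Within venous-like cells the direction of Abcg2 was the opposite one, with 1058 CPM in the library labelled IL34LacZ/LacZ against 686 CPM in the library labelled IL34LacZ/+, a log2 ratio of 0.62 (0.20 to 1.07) that passed 1.5-fold. Slco1a4 had 0.22 (0.02 to 0.44) there, and Abcb1a and Slco1c1 both had -0.10, with limits that include 0.

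**Figure D4:**
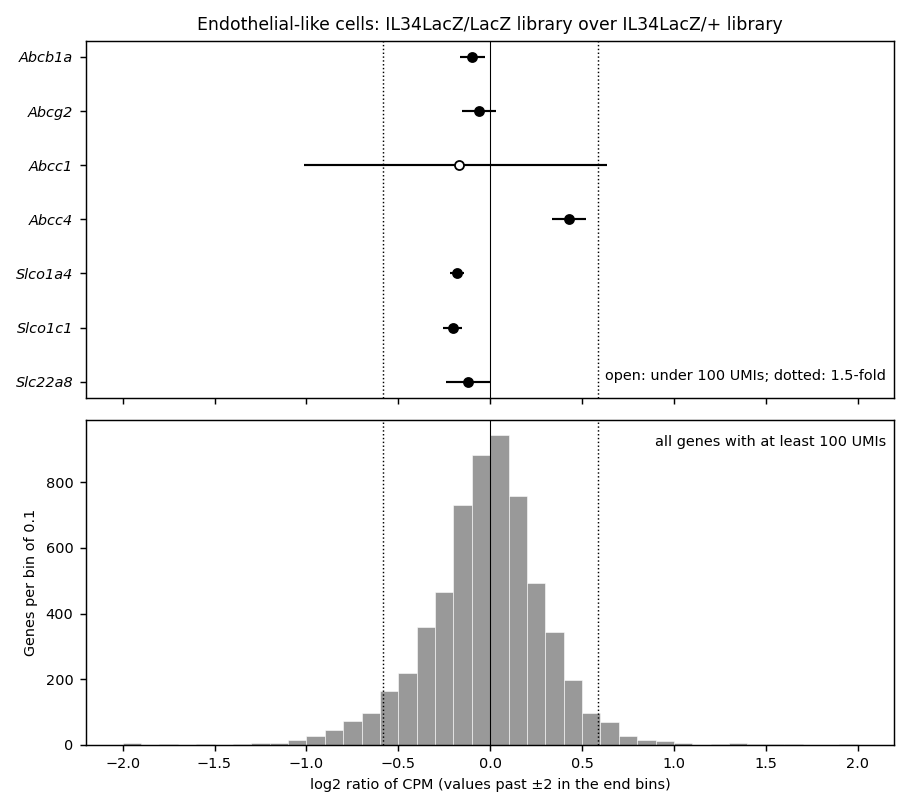
Log2 ratio of CPM in endothelial-like cells, library labelled IL34LacZ/LacZ over library labelled IL34LacZ/+, for the 7 transporter genes with 95% counting intervals (top) and for all 6063 genes with at least 100 UMIs (bottom). Dotted lines mark 1.5-fold and the open point is Abcc1, with too few UMIs. All filled points lie between the dotted lines, Abcc4 at 0.43 and the other 5 between -0.20 and -0.06.

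Outside the endothelium 0 of 15 pairs of a member and a class with at least 100 UMIs passed 1.5-fold between the libraries. Of all genes measured, 5.37% passed in astrocyte-like cells, 2.71% in oligodendrocyte-like cells, 4.8% in choroid plexus epithelium-like cells, 12.2% in pericyte-like, 17.1% in fibroblast-like and 6.61% in border cells, so a count of 0 in 15 is near the background. In choroid plexus epithelium-like cells the log2 ratios were 0.46 (-0.07 to 0.99) for Abcc1, 0.24 for Abcg2, 0.23 for Abcc4, -0.01 (-0.12 to 0.10) for Slco1c1, -0.20 for Slc22a8 and -0.26 (-0.52 to -0.01) for Slco1a4. The limits of Slco1a4 leave out 0 and those of the other 5 genes include it. All 3 pairs measured in fibroblast-like cells were lower in the library labelled IL34LacZ/LacZ, with -0.46 (-0.98 to 0.06) for Abcb1a, -0.36 (-0.93 to 0.21) for Slc22a8 and -0.32 (-0.78 to 0.13) for Abcg2. Slco1c1 had -0.02 (-0.19 to 0.14) in astrocyte-like cells, Slc22a8 0.16 (-0.33 to 0.66) in pericyte-like cells and Abcc1 0.27 (-0.22 to 0.78) in oligodendrocyte-like cells. In border cells Abcb1a had -0.13 (-0.30 to 0.03) and Abcg2 0.13 (-0.02 to 0.28).

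The count outside the endothelium moved with the choice of cells. With at least 2000 UMIs per cell, or with no filter, 1 pair passed (Abcb1a in fibroblast-like cells, log2 -0.61 and -0.62). With Leiden classes 2 passed, both Slco1a4. In astrocyte-like clusters it stood at 11 CPM (14 UMIs) in the library labelled IL34LacZ/LacZ against 47.5 CPM (110 UMIs) in the library labelled IL34LacZ/+, a log2 ratio of -2.10 (-3.02 to -1.30). In fibroblast-like clusters it stood at 49.8 CPM (14 UMIs) against 329 CPM (88 UMIs), a log2 ratio of -2.73 (-3.66 to -1.90).

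Other genes of the same pathways were read from 6 lists. Among 18 other ABC genes 6 were measured in endothelial-like cells and 0 passed 1.5-fold between the libraries (median log2 -0.17). Abcb1b, the near copy of Abcb1a, held 7 and 16 UMIs there, and Abcc6 stood at 114 and 143 CPM, the only other one highest in endothelial-like cells at over 20 CPM. The most abundant ones were highest elsewhere: Abca2, a lipid transporter, in oligodendrocyte-like cells (471 and 514 CPM), Abca8a and Abca9 in fibroblast-like cells (613 and 326 CPM, 595 and 315 CPM), Abca1, a cholesterol exporter, also in fibroblast-like cells (243 and 397 CPM) and Abcc5, an exporter of cyclic nucleotides, in neuron-like cells (312 and 153 CPM). Among 10 other OATP genes only Slco2b1 was measured in endothelial-like cells, at 303 and 314 CPM, and did not pass 1.5-fold, while Slco3a1, a prostaglandin carrier, reached 1104 and 942 CPM in pericyte-like cells. Slco2a1, the prostaglandin transporter, and Slco4a1 were highest in border cells, at 74.5 and 64.9 CPM and at 60.2 and 34.9 CPM, and Slco1a5 in choroid plexus epithelium-like cells, at 15.6 and 22.9 CPM.

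Of 21 other organic ion and nucleoside carriers 2 were measured in endothelial-like cells and 0 passed 1.5-fold. Slc47a1 and Slc47a2, exchangers of organic cations, were highest in border cells, with Slc47a2 at 243 and 202 CPM. Slc22a17 was highest in choroid plexus epithelium-like cells (1121 and 1172 CPM), Slc22a23 in oligodendrocyte-like cells (195 and 193 CPM) and Slc15a2, a peptide carrier, in astrocyte-like cells (166 and 170 CPM). Of 11 genes of thyroid hormone handling 6 were measured and 0 passed 1.5-fold (median log2 -0.31). Slc7a5, a large amino acid carrier, stood at 565 and 706 CPM in endothelial-like cells, which were its highest class as they were for Slco1c1. The thyroid hormone receptors Thra and Thrb were highest in oligodendrocyte-like (417 and 432 CPM) and astrocyte-like cells (499.7 and 568 CPM), and Ttr, the thyroxine carrier of cerebrospinal fluid, in choroid plexus epithelium-like cells (247179 and 295307 CPM).

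Of 12 regulators of drug transport genes 7 were measured in endothelial-like cells and 1 passed 1.5-fold. This was Keap1, the inhibitor of Nfe2l2, at 30.7 and 49.3 CPM (log2 -0.68, -1.18 to -0.20, from 50 and 129 UMIs). Nfe2l2 itself had a log2 ratio of 0.32 (0.03 to 0.60), and Nr3c1, the glucocorticoid receptor, 0.27 (0.14 to 0.39) from 570 and 473 CPM. Lef1, a partner of beta-catenin, stood at 1928 and 2153 CPM and Ctnnb1 at 285 and 316 CPM, both highest in endothelial-like cells. Arnt, the partner of Ahr, stood at 176 and 161 CPM there. Of 20 drug metabolism enzymes 10 were measured and 1 passed 1.5-fold, Gstm1, a glutathione transferase highest in astrocyte-like cells, at 37.5 and 56.9 CPM in endothelial-like cells (log2 -0.60, -1.06 to -0.16). Cyp1b1 was highest in fibroblast-like cells (245 and 252 CPM), Gsta4 in choroid plexus epithelium-like cells (339 and 339 CPM), and Por (396 and 239 CPM) and Gstm5 (571 and 655 CPM) in border cells. Both genes past 1.5-fold were lower in the library labelled IL34LacZ/LacZ, 2 of the 32 measured over the 6 lists beside the 7.34% of all genes given above.

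Likeness was measured as Pearson's r of log2(CPM + 10) over 20 points, 10 classes in each library, which share their libraries and depth, among 9172 other genes. Abcb1a and Abcc4 had 0.960, Abcb1a and Abcg2 0.913, and Slco1a4 and Slco1c1 0.811, while Abcc1 lay between -0.101 and 0.287 with the other members. The genes most like Abcb1a were Fn1, Xdh, Trpm6, Cdh5 and Rai14 (0.964 to 0.971), and those most like Abcg2 were Ltbp4, Klf2, Xdh, Smad6 and Gpr4 (0.927 to 0.941). For Abcc4 they were Abcb1a, Lsr, Rai14, Cpne8 and Hmcn1 (0.946 to 0.960). Slco1a4 was most like the endothelial genes Cyyr1, Nos3, Adgrl4, Jag2 and Ptprb (0.955 to 0.967). For Slco1c1, Lrp8, Aqp11, Plk2, Sorbs2 and Nedd9 reached 0.855 to 0.883, for Slc22a8, Itga1, Cgnl1, Flvcr2, Osmr and Lama4 reached 0.861 to 0.902, and for Abcc1, Abca5, Tspan17, Mfn2, Nectin3 and Mtmr4 reached 0.867 to 0.902.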

How the data were processed

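The authors deposited 1 matrix of raw UMI counts for each library. Per the file headers it came from Cell Ranger 7.1.0, and the submitters' processing notes name mm10 (GRCm38.p6). The 10x 3-prime kit v3.1 was used, per the labels' protocols. The annotation release, any removal of free RNA and any removal of doublets are not given in the sources used here. Barcode and feature lists carry names only.

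Barcodes were kept from 1000 UMIs and 500 genes upward if no more than 15% of UMIs were mitochondrial. The median was 10366 UMIs per kept cell in the library labelled IL34LacZ/LacZ and 8053 in the library labelled IL34LacZ/+. Scrublet (scanpy 1.11.5) marked 8 and 9 barcodes (0.681% and 0.540%, against 4.32% and 3.12% expected), which were removed, so doublets were probably missed. A class score was the mean over its markers of log counts divided by their percentile 99. The leading class needed a score of at least 0.25 and 1.5 times the next, with 11 and 24 endothelial-like cells under 2 times. Zones needed a lead of 0.1. Fibroblast-like and border cells were split where the border score times 2 reached the fibroblast score. These rules were set after first scores and member values had been seen, and 82 and 131 cells fell in no class. Counts were summed per class and library. Intervals are exact Poisson for CPM, exact conditional binomial for ratios and exact Clopper-Pearson for shares. Ratios were read for genes with at least 100 UMIs. The computation of ratios and intervals was checked on simulated counts with counting error alone. Those counts held no spread between cells or libraries, so the check says nothing about such spread.

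The members, the lists and the rule for named genes (all members, up to 5 most abundant genes of each list, list genes past 1.5-fold, and 5 genes most like each member) were chosen with earlier results of these data known. A gene that this rule names is not reported here. No p-value was computed.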

Additional observations from a re-analysis of the deposited data

Results flagged for a closer look

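Results of opposite direction are given as values, and no difference between them was tested. Slco1c1 in arterial-like over capillary-like cells had a log2 ratio of -0.48 in the library labelled IL34LacZ/LacZ and 0.16 in the library labelled IL34LacZ/+. Between the libraries, Slco1a4 had log2 ratios of -0.26 in choroid plexus epithelium-like, -0.72 in arterial-like and -0.17 in capillary-like cells, but 0.22 in venous-like cells. Abcg2 had -0.10 in capillary-like and 0.62 in venous-like cells. The arterial-like and venous-like values rest on 11 to 18 cells per library.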

How the results depend on the processing

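The number of members highest in endothelial-like cells in both libraries was 6 under every alternative run (other filters, Leiden classes, a stricter gate, other scaling, thinning, cell means, without the cells highest for a gene, doublets kept). The number past 1.5-fold between the libraries in endothelial-like cells was 0 under all of these. It was 2 of 3 measured within arterial-like cells (Slco1a4 and Slco1c1, lower) and 2 of 5 within venous-like cells (Abcg2 and Abcc4, higher). The share of all genes was not computed within these zones, so nothing is read from the zone counts. Fenestrated-like cells gave no value. Outside the endothelium it was 1 with at least 2000 UMIs per cell and 1 with no filter (Abcb1a in fibroblast-like cells, log2 -0.61 and -0.62), and 2 with Leiden classes (Slco1a4 in astrocyte-like and fibroblast-like clusters, log2 -2.10 and -2.73), and the cause was not tested. The split of fibroblast-like from border cells at equal scores, and the alternatives for venous-like and fenestrated-like cells, were chosen after seeing the data. In arterial-like cells the count below capillary-like cells was 4 or 5, in venous-like cells 3, and in fenestrated-like cells 5, or 6 when thinned to 1000 UMIs, with genes at 0 UMIs counted from the bound that 3 UMIs give. Of 302 values of single members under the alternatives, 268 stayed within the counting interval, 34 moved outside it, 7 newly passed 1.5-fold (the 4 within zones and the 2 of Abcb1a above, and Abcg2 in thinned fenestrated-like cells) and 1 no longer did (Slco1a4 in arterial-like over capillary-like cells, library labelled IL34LacZ/+ alone, -0.49). The sign changed in 19, none of them past 1.5-fold before, among them Abcg2 (0.62) and Slco1a4 (0.22) within venous-like cells. Depth limits Abcc1 and the small zones. No paired analysis was possible because each genotype has 1 library.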
